A study of Mus musculus with 6 samples.

Results

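ADAM proteins (a disintegrin and metalloprotease) are membrane-anchored zinc proteases, many of which cut the outer part of other membrane proteins from the cell surface. The release is called shedding, and it sets free growth factors, cytokines and receptors or removes adhesion proteins. ADAM10 and ADAM17 are the broadly acting sheddases, with Notch and amyloid precursor protein among the targets of ADAM10, and tumor necrosis factor and several epidermal growth factor receptor (EGFR) ligands among those of ADAM17. ADAM8 is best known from granulocytes, macrophages and invasive tumor cells, whereas ADAM12 and ADAM19 are known from mesenchymal cells.

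Transcripts of 7 of these genes, Adam8, Adam9, Adam10, Adam12, Adam15, Adam17 and Adam19, were examined in 6 mouse tumor samples. They were taken by symbol from a table of 21899 genes that lists 35 ADAM genes in all. The family was chosen on FPKM values of these same samples, with the differences of Adam8 in view. For this reason the differences between groups in these 7 genes are given as a description with no test, and tests are given only for their regulators and for genes of the proteins they shed.

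The tumors grew from LLC-luc cells, a luciferase-labelled Lewis lung carcinoma line, placed under the skin of male C57BL/6 mice. The Laser group had irradiation and, per the study's methods, saline. The PC-La group had phycocyanin (PC), a light-absorbing algal protein used as photosensitizer, before irradiation, and the SePC-La group had selenium-enriched phycocyanin. Each group held 2 samples, and all 6 samples came from irradiated tumors. The labels give a wavelength of 620 nm, 10 min of irradiation 4 h after the injection, and injections 5 days apart, while the methods state another wavelength and interval. No label says whether the samples of a group came from separate mice, so the p-values below measure only the spread between these samples.

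The deposited values were FPKM, reads counted on a gene per kilobase of exon and scaled to the total of counted reads. Between 14447792 and 17649489 reads per sample were recovered from them. The paired samples of a group were not equally close: a chi-square of their reads, near 1 per gene for sampling noise alone, was 8.35 per gene in PC-La, 34.2 in SePC-La and 68.5 in Laser. Laser replicate 2 stood apart, with a sum over 6 skeletal muscle markers of 124 FPKM against 1.52 to 19.1 in the other samples. Of 4 epithelial markers, the keratins Krt8 and Krt18 were present in all samples at 78.1 to 166 FPKM. The other 2, Krt19 (0.187 to 0.931 FPKM) and Epcam (0.0304 to 0.129 FPKM), were low. The defining lung epithelial genes Scgb1a1 and Nkx2-1 were at 0 in all samples, and Sftpc and Sftpb reached at most 0.369 FPKM.

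The transcribed regions of the 7 genes lie on 6 chromosomes of GRCm38 (GENCODE M21). Adam8 is on chromosome 7 from 139978932 to 139992562, and Adam12 lies 5.75 Mb away on the same chromosome, from 133883199 to 134232146. Adam9 is on chromosome 8 from 24949611 to 25016927, Adam10 on chromosome 9 from 70678997 to 70780229, and Adam15 on chromosome 3 from 89338542 to 89349996. Adam17 is on chromosome 12 from 21323509 to 21373632 and Adam19 on chromosome 11 from 46055992 to 46147343. Adam10 and Adam19 are on the plus strand and the other 5 on the minus strand.

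The 250 bases before the RefSeq start sites (build GRCm38.p6) of Adam8, Adam10 and Adam17 are shown. They were chosen because the group means of Adam8 ran opposite to those of the other 2 genes. For Adam17, Laser and SePC-La overlapped. Capitals mark the GC box (GGGCGG) and the CCAAT box (CCAAT), searched on both strands. The windows are chr7:139992563-139992812 (minus strand), chr9:70678732-70678981 (plus strand) and chr12:21373633-21373882 (minus strand), each written 5′ to 3′ along the gene.
Adam8: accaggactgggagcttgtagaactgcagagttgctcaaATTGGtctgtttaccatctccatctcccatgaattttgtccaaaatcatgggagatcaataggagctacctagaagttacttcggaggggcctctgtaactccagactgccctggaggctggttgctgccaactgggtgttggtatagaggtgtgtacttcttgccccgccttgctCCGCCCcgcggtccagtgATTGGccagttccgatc
Adam10: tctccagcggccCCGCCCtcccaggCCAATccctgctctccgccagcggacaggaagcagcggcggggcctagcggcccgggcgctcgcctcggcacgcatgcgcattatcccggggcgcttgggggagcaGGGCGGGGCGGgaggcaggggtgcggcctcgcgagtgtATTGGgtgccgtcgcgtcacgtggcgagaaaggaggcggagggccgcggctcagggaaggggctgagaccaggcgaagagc
Adam17: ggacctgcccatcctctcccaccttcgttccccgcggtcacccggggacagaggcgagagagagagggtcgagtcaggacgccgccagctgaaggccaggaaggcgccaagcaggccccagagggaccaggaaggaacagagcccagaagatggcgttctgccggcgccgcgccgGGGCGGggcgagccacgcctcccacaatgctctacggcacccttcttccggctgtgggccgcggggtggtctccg

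The window of Adam8 held 52.8% G and C with 6 CpG, close to the median of 52.4% and 6 CpG over 32851 such windows. Those of Adam10 (74.0% and 29 CpG) and Adam17 (70.4% and 23 CpG) were richer in G and C than 95.1% and 91.2% of all windows. A GC box was found in all 3, once in Adam8 and Adam17 and 3 times, of which a pair overlapped, in Adam10; 32.7% of all windows held at least 1. A CCAAT box was found 2 times in Adam8, 2 times in Adam10 and not in Adam17, and in 33.8% of all windows. The AP-1 motif TGANTCA (6.75% of windows) and the TATA box TATAAA (12.4%) matched in none of the 3, and CACGTG (6.02%) matched 1 time, in Adam10. These are matches of letters and say nothing about binding.

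Adam8 was the member that separated the 3 groups most clearly. Its level was 37.4 and 36.2 FPKM (Laser), 17.1 and 19.6 (PC-La), and 54.8 and 51.3 (SePC-La). PC-La was thus the lowest group and SePC-La the highest, with no overlap between any of the groups. The group means were 36.8 ± 0.817, 18.4 ± 1.78 and 53.0 ± 2.44 FPKM (SD, n = 2 each). The mean of PC-La was 0.499 times and that of SePC-La 1.44 times the mean of Laser, and the mean of SePC-La was 2.89 times that of PC-La. On the log2(FPKM + 1) scale the differences were -0.97 for PC-La and 0.52 for SePC-La against Laser, and 1.48 for SePC-La against PC-La, each with a standard error of 0.12. The values rested on 1239 to 4155 reads per sample. With each sample left out the differences were -1.06 to -0.87, 0.47 to 0.56 and 1.39 to 1.58. Their sign could not change in this way, because the groups did not overlap.

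Adam10 had the reverse order. It had 44.6 and 36.7 FPKM (Laser), 52.5 and 58.1 (PC-La), and 24.7 and 33.2 (SePC-La). Both PC-La samples were above both Laser samples, and both SePC-La samples were below them. The group means were 40.6 ± 5.57, 55.3 ± 3.98 and 28.95 ± 6.02 FPKM (SD, n = 2 each), so that PC-La was 1.36 times and SePC-La 0.713 times the Laser mean. The log2 differences were 0.44 and -0.48 against Laser and -0.92 between SePC-La and PC-La, each with a standard error of 0.18. The nearest samples of Laser and SePC-La were at 36.7 and 33.2 FPKM, and without SePC-La replicate 1 the difference from Laser was -0.28.

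Adam17 followed Adam10 in order but with smaller differences. Its level was 25.5 and 20.3 FPKM (Laser), 28.3 and 28.2 (PC-La), and 18.9 and 21.1 (SePC-La). PC-La was above both other groups, whereas Laser and SePC-La overlapped. The log2 difference was 0.30 for PC-La and -0.18 for SePC-La against Laser, and -0.48 between SePC-La and PC-La, each with a standard error of 0.15. Without Laser replicate 1 the difference of SePC-La from Laser was -0.02, and without Laser replicate 2 that of PC-La was 0.14. Within each sample, Adam10 stood at 1.31 to 2.06 times the level of Adam17.

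**Figure D1:**
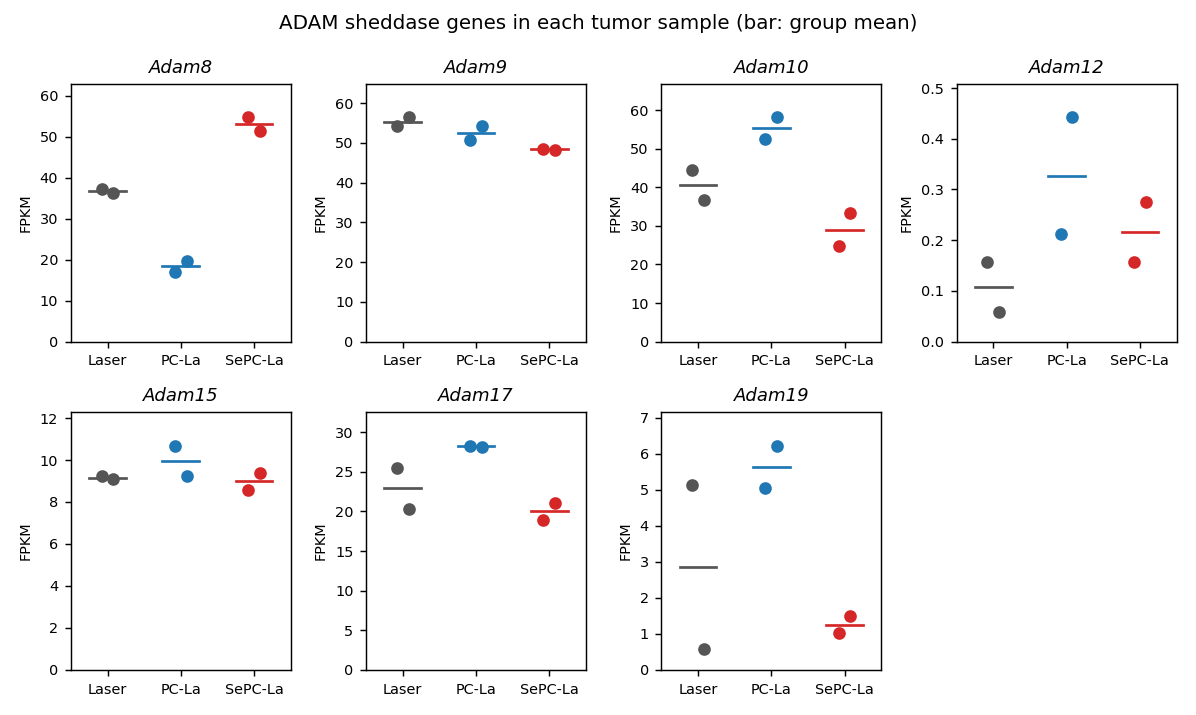
FPKM (vertical axes, each from 0 with its own scale) of the 7 ADAM genes in the Laser, PC-La and SePC-La groups; points are samples and bars are group means. Adam8 was lowest in PC-La (17.1 and 19.6 FPKM) and highest in SePC-La (54.8 and 51.3), and Adam10 had the reverse order.

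Adam9 and Adam15, whose products are broadly expressed sheddases, varied little. Adam9 was at 54.2 and 56.4 FPKM (Laser), 50.7 and 54.1 (PC-La), and 48.4 and 48.3 (SePC-La). It was therefore lowest in SePC-La, by a log2 difference of -0.19 from Laser (standard error 0.11), which was -0.11 with median-ratio scaling and -0.28 with quantile normalization. The difference of SePC-La from PC-La was -0.11, or -0.01 with median-ratio scaling. The gap between Laser and PC-La was smaller than the distance between the samples of either group. Adam15 was at 9.23 and 9.08 FPKM (Laser), 10.7 and 9.25 (PC-La), and 8.59 and 9.38 (SePC-La). SePC-La overlapped both other groups for this gene, and the log2 difference of PC-La from Laser was 0.11 (standard error 0.13), or 0.01 without PC-La replicate 1.

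Adam19 differed mainly between the samples of the Laser group. It had 5.13 and 0.573 FPKM (Laser), 5.05 and 6.23 (PC-La), and 1.01 and 1.49 (SePC-La). Laser overlapped both other groups, while PC-La and SePC-La did not overlap. The log2 difference was 1.09 for PC-La and -0.47 for SePC-La against Laser, and -1.56 between SePC-La and PC-La, each with a standard error of 0.62. Without Laser replicate 2 the differences from Laser were 0.11 and -1.45, and without Laser replicate 1 they were 2.07 and 0.51, so the side of SePC-La on which Laser lay was set by which Laser sample was kept. The difference between SePC-La and PC-La was -2.10 with a pseudocount of 0.1.

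Adam19 moved with most of the fibroblast markers. The summed FPKM of 8 fibroblast genes (such as Col3a1, Dcn and Lum), all 8 with a mean over 1 FPKM, was 1247 and 288 (Laser), 1722 and 1573 (PC-La), and 122 and 636 (SePC-La). The 3 samples with an Adam19 level above 5 FPKM were those with the 3 highest sums. Adam10 and Adam17 also had their 3 highest values in these samples. Col3a1, Dcn, Lum, Pdgfra and Fap each had their 3 highest values in these samples, whereas Col1a1, Col1a2 and Pdgfrb did not. Col1a1, for one, was highest in SePC-La replicate 2 at 23.2 FPKM, where Adam19 was at 1.49. The part of the fibroblast content in the differences of Adam19, Adam10 and Adam17 was not tested. In bulk samples, fewer cells of a type and less RNA per cell cannot be told apart.

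Adam12 was hardly detected. It had 0.156 and 0.0589 FPKM (Laser), 0.212 and 0.442 (PC-La), and 0.157 and 0.276 (SePC-La), from 11 to 70 reads per sample. PC-La and SePC-La overlapped, and the nearest samples of Laser and SePC-La were at 0.156 and 0.157 FPKM. With a mean of 0.217 FPKM, Adam12 was the 1 member that stayed below the minimum of 1 FPKM set for the fit, and the other 6 passed.

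Across the samples, the summed level of the 7 genes stayed between 157 and 176 FPKM while its makeup changed. Of the sum, Adam8 supplied 21.2% and 22.7% (Laser), 10.4% and 11.1% (PC-La), and 35.0% and 31.1% (SePC-La). Adam10 supplied 25.3% and 23.0% (Laser), 31.9% and 33.0% (PC-La), and 15.8% and 20.1% (SePC-La). The share of Adam9 was 29.2% to 35.4% over all samples. Per exon length, Adam9 was the highest member in both Laser samples, Adam10 in both PC-La samples and Adam8 in both SePC-La samples.

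The ratio of Adam8 to Adam10 within a sample does not depend on the scaling between samples. It was 0.838 and 0.986 (Laser), 0.326 and 0.337 (PC-La), and 2.22 and 1.55 (SePC-La). The ratio of Adam8 to Adam17 was 1.46 and 1.78 (Laser), 0.604 and 0.697 (PC-La), and 2.90 and 2.43 (SePC-La). Both ratios were chosen after the values were seen and are a description only. For both the 3 groups did not overlap, which for Adam8 to Adam10 follows from the opposite orders of these genes.

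**Figure D2:**
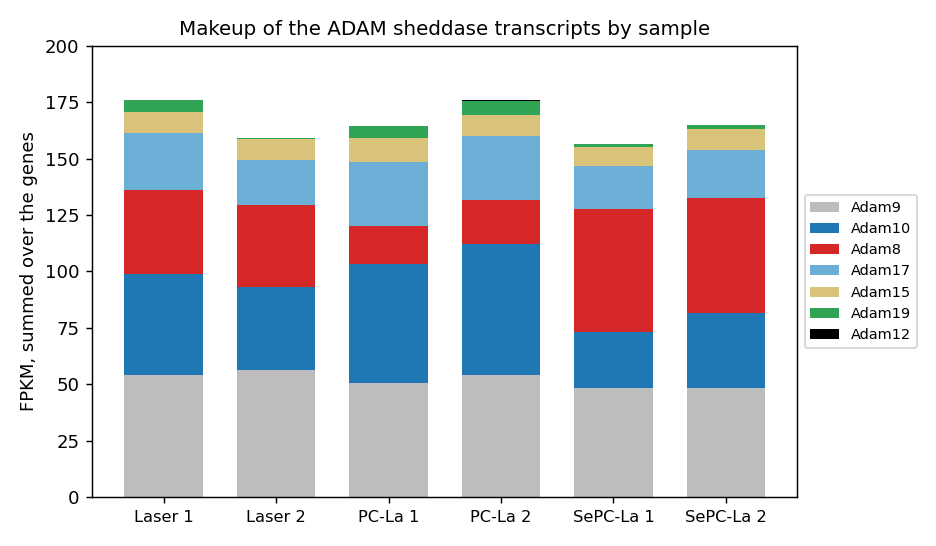
Stacked FPKM (vertical axis) of the 7 ADAM genes in each of the 6 samples. The height of the stacks stays within 157 to 176 FPKM, while the Adam8 layer is thinnest in PC-La and thickest in SePC-La.

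Shares of all tested genes past the same marks serve as background for the members. Of the 6 members past the filter, 1 (Adam19) exceeded an absolute log2 difference of 1 between PC-La and Laser, where 2.42% of the 10853 genes tested did. None did so between SePC-La and Laser (1.2% of all genes), and 2 did between SePC-La and PC-La, Adam8 and Adam19 (4.35% of all genes). Between PC-La and Laser, Adam8 fell just short at -0.97, and Adam19 was at 0.11 without Laser replicate 2. The groups did not overlap for 5 of the 6 members between PC-La and Laser (42% of all genes), for 3 between SePC-La and Laser (40.6%) and for 5 between SePC-La and PC-La (65.5%). The comparisons with Laser share the Laser samples. As these genes were selected on the same values, the counts describe them and are no evidence of an effect.

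**Figure D3:**
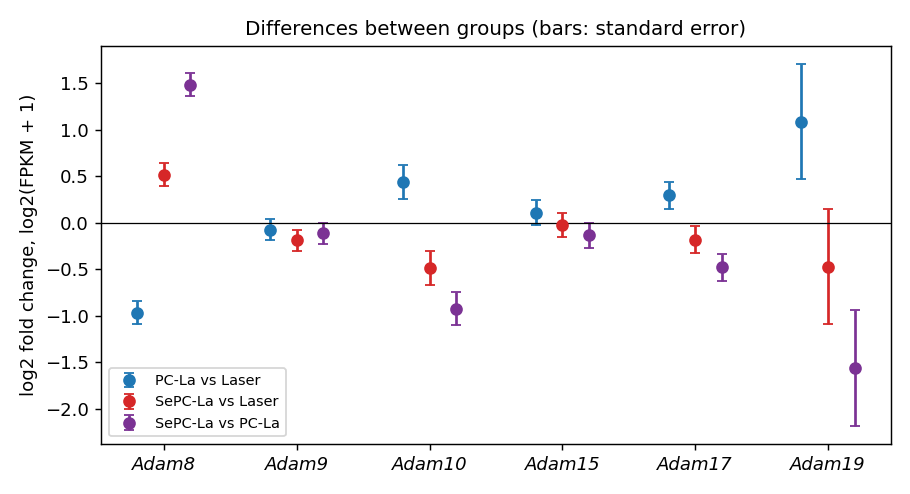
Log2 fold change on the log2(FPKM + 1) scale (vertical axis) of the 6 ADAM genes past the filter in the 3 comparisons; bars are standard errors from the limma fit. Adam8 lies at -0.97, 0.52 and 1.48, and the error bars are widest for Adam19.

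The 28 other ADAM genes in the table, Adamdec1 included, were all below the minimum. Adam33 had the highest mean of these at 0.599 FPKM, with 26 to 79 reads per sample. There were 13 genes listed at 0 in all samples, among them Adam28, a lymphocyte sheddase, and Adam2, a sperm protein. None of the 28 therefore entered the fit. The 6 ADAM genes above 1 FPKM in this tumor series were thus all members, and the mean levels of Adam8, Adam10 and Adam9 were above those of 93.99%, 95.1% and 96.3% of the listed genes.

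The genes with values most like those of Adam8 were sought among all tested genes by the root mean square difference of centred log2(FPKM + 1) over the 6 samples. Emilin2, an extracellular matrix glycoprotein, was closest at 0.11, with 25.1 and 26.6 FPKM (Laser), 14.3 and 16.1 (PC-La), and 39.5 and 38.1 (SePC-La). It was followed by F10 (coagulation factor X, 0.16), Tarm1 (a receptor of myeloid cells, 0.18), Clec4e (the receptor Mincle of macrophages and neutrophils, 0.18) and Fosl1 (a subunit of AP-1, 0.18). All 5 were lower in both PC-La samples and higher in both SePC-La samples than in Laser. This is the order of Adam8, for likeness to which they were picked. Of the other members, Adam9 was closest at 0.66 and Adam19 farthest at 1.39, with Adam10 at 1.00.

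**Figure D4:**
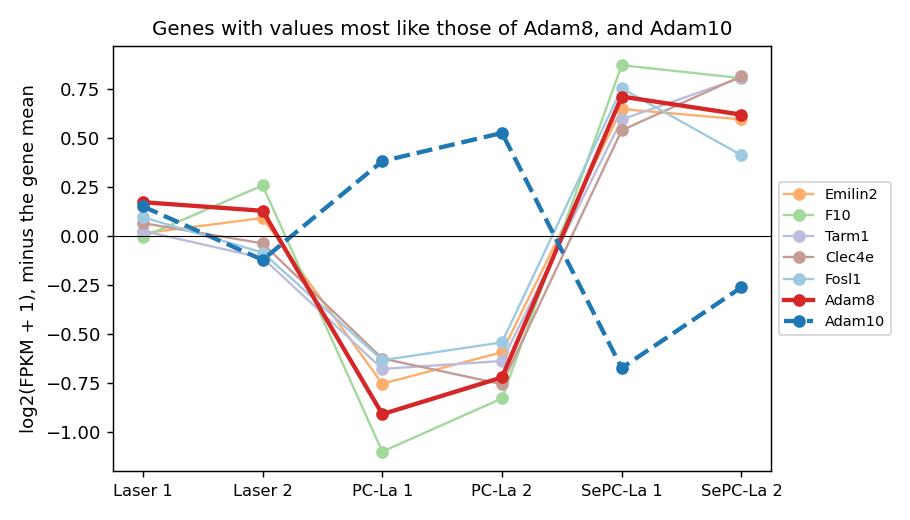
Log2(FPKM + 1) minus the mean of the gene (vertical axis) in the 6 samples for Adam8, the 5 genes nearest to it, and Adam10 for contrast. The 5 genes were picked for this likeness, with root mean square differences of 0.11 to 0.18, and Adam10 runs opposite in PC-La and SePC-La.

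Markers of the myeloid cells that carry ADAM8 did not all run with it. The summed FPKM of 8 neutrophil markers (6 of 8 with a mean over 1 FPKM, Camp and Ngp below it) was 161 and 34.6 (Laser), 156.5 and 91.4 (PC-La), and 337 and 462.5 (SePC-La). It was thus highest in SePC-La, like Adam8, but differed widely between the Laser samples, in which Adam8 was at 37.4 and 36.2 FPKM. The PC-La samples lay within the range of Laser. S100a9, at 14.1 to 300 FPKM, weighed most in the neutrophil sum. S100a8, S100a9, Csf3r, Cxcr2, Retnlg and Camp were each higher in both SePC-La samples than in any other sample, whereas Mmp9 and Ngp were not. Mmp9 was at 13.1 and 2.56 FPKM (Laser), 11.4 and 13.9 (PC-La), and 6.42 and 26.6 (SePC-La). The sum of 10 monocyte and macrophage markers was 1427 and 2228 (Laser), 1665 and 1802 (PC-La), and 1109 and 1611 (SePC-La), with overlap between Laser and SePC-La. Lyz2, at 599 to 1409 FPKM, weighed most in this sum, and its members went different ways. Cd14 had the order of Adam8 without overlap, at 59.7 and 58.7 FPKM (Laser), 45.2 and 40.7 (PC-La), and 80.1 and 84.0 (SePC-La), while the complement genes C1qa, C1qb and C1qc were highest in PC-La. C1qa, for one, was at 230 and 216 FPKM (Laser), 342 and 348 (PC-La), and 118.5 and 246 (SePC-La). The part of these cells in the Adam8 differences was not tested.

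For the genes that work with the sheddases, all 6 samples entered 1 limma fit over 10853 genes. A gene was called at an absolute log2 fold change over 1 with an unadjusted p under 0.05, the criterion of the study. No gene had a Benjamini-Hochberg adjusted p under 0.05 from limma in any comparison, nor with limma voom on recovered reads, while 627, 1318 and 2637 genes had an unadjusted p under 0.05 for PC-La against Laser, SePC-La against Laser and SePC-La against PC-La. This count of 0 did not hold in every alternative. Without Laser replicate 1, 312 genes (4 of them of shed proteins) had an adjusted p under 0.05 for PC-La against Laser and 97 (1 of a shed protein) for SePC-La against Laser. For SePC-La against PC-La there were 637 (4 of shed proteins) when only the 4 samples compared were fitted.

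The 18 regulator genes are those of metalloproteinase inhibitors and of proteins that carry or activate the sheddases, and 11 passed the filter. None was called in either comparison with Laser, where 0.866% and 0.544% of all genes were called higher, and 1 was called lower between SePC-La and PC-La (1.8% of all genes called lower). Without a limit on the fold change, p was under 0.05 for 0 regulators in PC-La against Laser (3.38% of all genes higher and 2.4% lower). It was so for 1 higher and 1 lower in SePC-La against Laser (4.9% and 7.24%) and for 2 lower in SePC-La against PC-La (14.4%, with 9.91% higher), counts of few genes out of 11. The median log2 fold changes were 0.09, -0.18 and -0.19, beside 0.00, -0.06 and -0.07 for all genes.

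Of the regulators, the metalloproteinase inhibitor gene Timp2 carried the call. Whether its product inhibits any of the members in these tumors was not tested. Timp2 had 161 and 174 FPKM (Laser), 192 and 165 (PC-La), and 65.9 and 118 (SePC-La), so that both SePC-La samples were the lowest. Its log2 fold change was -1.005 against PC-La (standard error 0.27, unadjusted p = 0.00917, adjusted p = 0.134 from limma) and -0.92 against Laser (adjusted p = 0.376). The call rested on SePC-La replicate 1, without which the value against PC-La was -0.59, and it was also lost without PC-La replicate 1 (-0.89) and with median-ratio scaling (-0.90). Timp1 went the other way, with 37.7 and 26.4 FPKM (Laser), 32.3 and 39.1 (PC-La), and 42.3 and 55.2 (SePC-La), a log2 fold change of 0.60 against Laser (standard error 0.22, unadjusted p = 0.0313, adjusted p = 0.385 from limma). Its p was over 0.05 without Laser replicate 2 (0.35, unadjusted p = 0.149), without SePC-La replicate 2 (0.41, unadjusted p = 0.168) and in the fit blocked on replicate number (unadjusted p = 0.0543).

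Timp3, the TIMP best known as an inhibitor of ADAM17, was low at 0.672 to 1.65 FPKM with all groups overlapping. Reck and Timp4 stayed below the minimum. The iRhom genes Rhbdf1 and Rhbdf2, which encode the carriers that bring ADAM17 to the surface, and Frmd8, which stabilises them, were at 20.6 to 24.4, 6.92 to 11.1 and 16.3 to 19.4 FPKM, with log2 fold changes between -0.18 and 0.21 in the 3 comparisons and no unadjusted p under 0.05.

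Of the TspanC8 tetraspanins, which escort ADAM10, Tspan14 was the most abundant at 29.7 and 22.9 FPKM (Laser), 28.3 and 28.9 (PC-La), and 18.2 and 22.3 (SePC-La). Like Adam10, it was lower in both SePC-La samples than in any other sample, with a log2 fold change of -0.48 against PC-La (standard error 0.17, unadjusted p = 0.0256, adjusted p = 0.165 from limma). Without either PC-La sample or SePC-La replicate 1 its p was over 0.05, with log2 fold changes of -0.50, -0.47 and -0.34. Tspan17 (11.3 to 21.1 FPKM) and Tspan5 (2.54 to 3.72 FPKM) had no unadjusted p under 0.05 in any comparison. Tspan15 and Tspan33 were below the minimum, and Tspan10 was at 0. Among the convertases that remove the inhibitory prodomain, Furin was at 12.4 to 16.9 FPKM and Pcsk7 at 4.32 to 7.22 FPKM with no unadjusted p under 0.05, and Pcsk5 and Pcsk6 were below the minimum.

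Of 51 genes of proteins known to be shed, 39 passed the filter. Against Laser, 2 were called higher in PC-La, Cxcl16 and F11r (0.866% of all genes), and 2 in SePC-La, Areg and Il1r2 (0.544%). Between SePC-La and PC-La only Il1r2 was called, higher in SePC-La (1.18%). Without that limit, p was under 0.05 in PC-La against Laser for 2 higher and 1 lower genes (3.38% and 2.4% of all genes), in SePC-La against Laser for 5 higher and 5 lower (4.9% and 7.24%) and in SePC-La against PC-La for 6 higher and 5 lower (9.91% and 14.4%). The median log2 fold changes of the list were -0.02, 0.14 and -0.04. The number of called genes of the list changed with the sample left out. So did the number over all genes, and both ranges are given at the end.

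Of the 3 EGFR ligand genes that passed the filter, 1 was called, Areg, higher in SePC-La than in Laser. It encodes amphiregulin and had 22.8 and 10.1 FPKM (Laser), 23.5 and 29.3 (PC-La), and 41.7 and 38.2 (SePC-La). Set against Laser, SePC-La had a log2 fold change of 1.33 (standard error 0.35, unadjusted p = 0.0102, limma adjusted p = 0.376), and the call was lost at 0.78 when Laser replicate 2 was left out. The other ligands past the filter, named after their values were seen, were Hbegf at a log2 fold change of 0.76 (standard error 0.19, unadjusted p = 0.00555, adjusted p = 0.376) and Ereg at 0.65 (standard error 0.20, unadjusted p = 0.0173, adjusted p = 0.376). Ereg lost p under 0.05 without Laser replicate 2 (0.37, unadjusted p = 0.0547) and without either SePC-La sample (unadjusted p = 0.0644 and 0.0643). SePC-La did not overlap with Laser for any of the 3 ligands, all higher (40.6% of all genes did not overlap in either direction), nor with PC-La (65.5%). The list held 5 more ligands below the minimum.

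Il1r2, the decoy receptor of interleukin-1 that is carried by neutrophils, had 10.0 and 4.96 FPKM (Laser), 6.81 and 5.74 (PC-La), and 13.5 and 21.1 (SePC-La). SePC-La was the highest group, with log2 fold changes of 1.14 against Laser and 1.302 against PC-La (standard error 0.34 each, adjusted p = 0.376 and 0.134 from limma). The calls were lost without SePC-La replicate 2 (0.84 and 0.998), and that against Laser also without Laser replicate 2 (0.70). The sum of the 8 neutrophil markers, highest in SePC-La, is given above, and the part of neutrophils in the Il1r2 differences was not tested.

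Cxcl16 and F11r were highest in PC-La, as Adam10 was. Cxcl16, a membrane-bound chemokine and target of ADAM10, had 12.1 and 4.76 FPKM (Laser), 18.7 and 19.7 (PC-La), and 6.78 and 12.2 (SePC-La). Its log2 fold change in PC-La against Laser was 1.22 (standard error 0.43, unadjusted p = 0.0332, adjusted p = 0.753 from limma), and the call was lost without Laser replicate 2 (0.63), without either PC-La sample (1.26 and 1.18) and in the fit blocked on replicate number (unadjusted p = 0.0589). F11r, the junctional adhesion molecule JAM-A, had 6.47 and 2.79 FPKM (Laser), 11.4 and 10.6 (PC-La), and 6.00 and 5.61 (SePC-La). Its log2 fold change in PC-La was 1.17 (standard error 0.31, unadjusted p = 0.00844, limma adjusted p = 0.682), and the call was lost at 0.68 when Laser replicate 2 was left out.

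Mertk and Il6st were lowest in SePC-La. Mertk, a receptor by which macrophages take up dying cells and a target of ADAM17, had 10.5 and 8.86 FPKM (Laser), 9.83 and 9.28 (PC-La), and 4.13 and 4.84 (SePC-La). The 2 SePC-La samples were well below the other 4, with a log2 fold change of -0.96 against Laser (standard error 0.14, unadjusted p = 0.00043, adjusted p = 0.376 from limma) and -0.95 against PC-La (unadjusted p = 0.000464, adjusted p = 0.107). It passed the fold of the criterion with a pseudocount of 0.1, at -1.09 and -1.08, but was at -0.845 and -0.827 with quantile normalization. Without Laser replicate 1 the value against Laser was -0.849, and without SePC-La replicate 1 that against PC-La was -0.854. Il6st, the signalling receptor gp130 of the interleukin-6 family, had 21.3 and 18.7 FPKM (Laser), 17.7 and 17.5 (PC-La), and 12.2 and 13.5 (SePC-La), a log2 fold change of -0.60 against Laser (standard error 0.13, unadjusted p = 0.00275, adjusted p = 0.376 from limma).

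**Figure D5:**
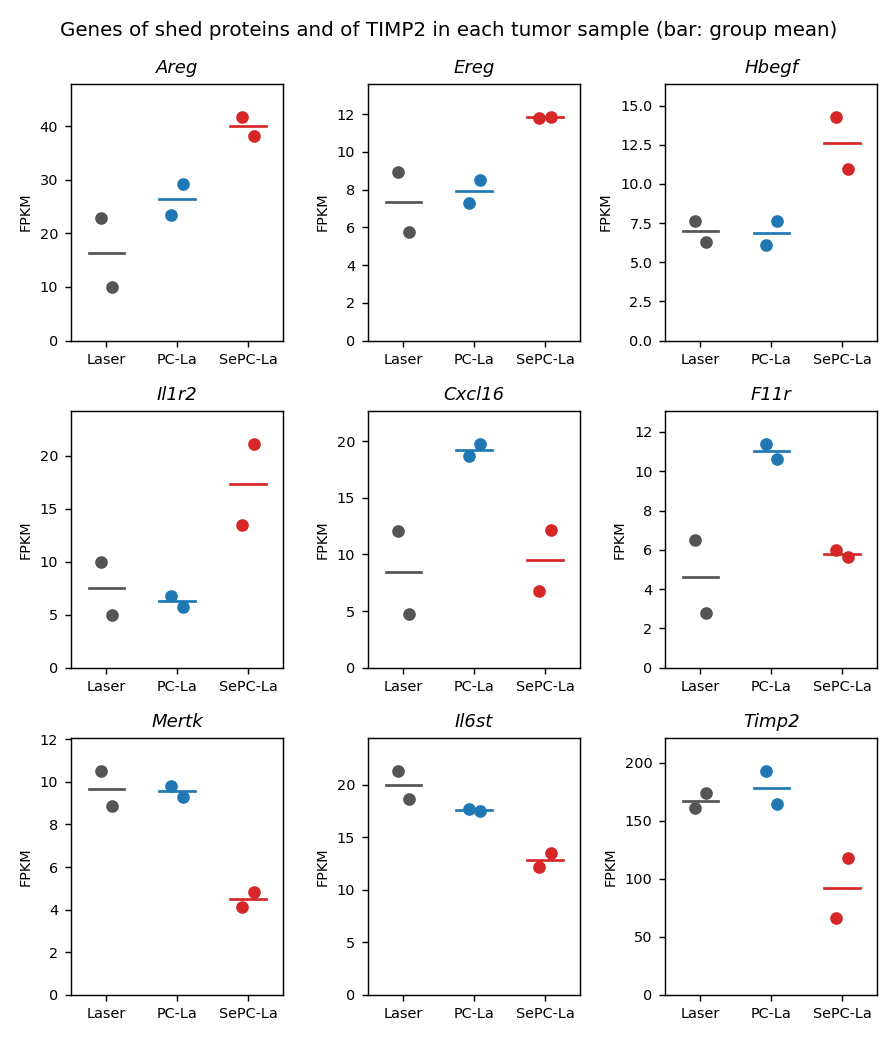
FPKM (vertical axes, each from 0 with its own scale) of 8 genes of shed proteins and of the metalloproteinase inhibitor gene Timp2 in the 3 groups. Points are samples and bars are group means. The EGFR ligand genes Areg, Ereg and Hbegf and the receptor gene Il1r2 are highest in SePC-La, Cxcl16 and F11r in PC-La, and Mertk, Il6st and Timp2 are lowest in SePC-La.

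Tnf, its receptors and the Notch and amyloid genes were not called. Tnf, the name-giving target of ADAM17 (TNF-alpha converting enzyme), was low at 0.699 and 1.18 FPKM (Laser), 0.507 and 1.06 (PC-La), and 1.82 and 1.54 (SePC-La). Its receptors Tnfrsf1a and Tnfrsf1b ran from 45.8 to 56.7 and from 10.7 to 15.4 FPKM. For Tnf, SePC-La against PC-La had a log2 fold change of 0.60 (unadjusted p = 0.0438, adjusted p = 0.196 from limma). Of the Notch and amyloid genes, 9 of 11 passed the filter and none was called in any comparison, with p under 0.05 for 0 in PC-La against Laser, 2 lower in SePC-La against Laser (7.24% of all genes) and 1 lower in SePC-La against PC-La (14.4%). These targets were named after their values were seen.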

How the data were processed

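RNA of 6 tumor samples was sequenced, 2 from each of Laser, PC-La and SePC-La. The authors deposited 1 table of FPKM values. The submitters' processing notes name HISAT2 2.0.5, HTSeq 0.9.1 and DESeq 1.30.0 and the build mm9, without their roles, and no source names the unit of the table. It was settled from the values: multiplied by merged exon lengths of GENCODE M21 (GRCm38), all values of 97.8% of 16785 expressed genes came within 0.02 of whole reads at a single total per sample, so coordinates are given in GRCm38.

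Genes whose mean reached 1 FPKM (10853) were tested with limma 3.58.1 (R 4.3.3) on log2(FPKM + 1), a scale that understates changes of low genes. The fit had a mean per group and trended, robust empirical Bayes moderation. Benjamini-Hochberg adjustment ran over all genes. Standard errors are those of the fit. The fit was tested on simulated data.

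The members, the lists and the tests were chosen with earlier results of these data known. Named were the 7 members, all regulators, shed-protein genes that were called or among the 2 smallest p of their list in a comparison, and the 5 genes most like Adam8. A shed-protein gene that met this rule is not reported here. Alternatives were a pseudocount of 0.1, no minimum or a minimum of 5 FPKM, median-ratio and quantile scaling, the 4 samples compared, a replicate block, voom on the recovered reads, and each sample left out. The windows came from RefSeq, and 5 of the 7 members had a window. The motifs were fixed strings of letters. Plots were made with Python 3.11.15 and matplotlib 3.10.9.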

Additional observations from a re-analysis of the deposited data

How the results depend on the processing

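The log2 differences of Adam8 and Adam10 kept their sign in every alternative run. With a sample left out this was bound to be so, because their groups did not overlap. The difference between SePC-La and Laser changed sign for Adam19, as given above, and for Adam15. That of Adam15 was -0.03, and it reached 0.05 with quantile normalization and 0.03 without SePC-La replicate 1. When 1 sample was left out, the lone sample of its group was assumed to vary like the others.

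Genes called numbered 140, 74 and 323 for PC-La against Laser, SePC-La against Laser and SePC-La against PC-La. With a minimum of 5 FPKM they were 68, 46 and 186, where fewer genes are tested. With a pseudocount of 0.1 they were 129 for SePC-La against Laser and 488 for SePC-La against PC-La, and with voom 220 for PC-La against Laser and 131 for SePC-La against Laser. With each sample left out they ran from 71 (without PC-La replicate 2) to 664 (without Laser replicate 1), 73 (without SePC-La replicate 1) to 253 (without Laser replicate 1) and 169 (without SePC-La replicate 1) to 584 (without SePC-La replicate 2). Adjusted p was under 0.05 for 0 genes in each comparison, but without SePC-La replicate 2 for 1 in either comparison of SePC-La, and for SePC-La against PC-La for 3 with a minimum of 5 FPKM, 6 with median-ratio scaling and 8 with quantile normalization, beside the larger counts given above. The 323 genes were 128 higher and 195 lower, but 166 and 149 with median-ratio scaling and 164 and 143 with quantile normalization. The cause of these shifts was not tested.

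Of the shed-protein genes, called at 2, 2 and 1, SePC-La against PC-La gave 3 with a pseudocount of 0.1, 2 with either scaling, 2 with the 4 samples compared and 3 with voom. With each sample left out the counts ran from 0 to 6, 1 to 3 and 1 to 4. The regulators, at 0, 0 and 1, gave 1 for SePC-La against Laser with quantile normalization and 0 for SePC-La against PC-La with median-ratio scaling, and ran from 0 to 1 in both comparisons of SePC-La with a sample left out. Pcsk7 in PC-La against Laser ran from -0.0592 without Laser replicate 2 to 0.53.

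The replicate numbers are not known to mark a shared mouse or day. Deviations of same-numbered samples correlated at 0.086, -0.428 and -0.177 across genes between Laser and PC-La, Laser and SePC-La, and PC-La and SePC-La. With the replicate number as a block, 133, 81 and 285 genes were called, and 1 shed-protein gene in place of 2 for PC-La against Laser.

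With no minimum, 0 of the other ADAM genes were called in each comparison, and Adam19 had no value at a minimum of 5 FPKM. Since the table holds FPKM, reads were modelled only by voom, on the recovered reads.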
